A study of Mus musculus with 12 samples.

Results

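The difference between the angiotensin II (ANG II) responses of kidneys with and without the AT1A receptor was measured on all 12 arrays of the study, which is 12 of 12 samples. It was computed as the change with ANG II in receptor-deficient mice (KO) minus the change in wild type mice (WT), and the features that passed were sorted by which genotype responded. The 4 groups were WT at baseline, WT with ANG II, AGTR1A-KO at baseline and AGTR1A-KO with ANG II, with 3 male mice in each and 1 array per mouse. All mice were F1 (C57BL6 X 129/SvEv), 2.5 months old and on the diet that the labels call NS diet, and the infused groups had received ANG II at 1 ug/kg/min for 2 days. The labels give no vehicle infusion for the baseline groups and do not say which part of the receptor gene was removed or whether it was removed in every tissue. Total RNA came from snap-frozen kidneys and was hybridised to Affymetrix arrays. In bulk kidney RNA, fewer cells of a type and less RNA per cell cannot be told apart.

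The peptide ANG II carries out most actions of the renin-angiotensin system. In the mouse kidney it acts mainly on AT1A, a receptor coupled to Gq proteins, on vascular smooth muscle, mesangial cells and tubular epithelium, where it causes vasoconstriction and sodium reabsorption. It also acts on the adrenal cortex, which releases aldosterone, and so reaches kidney genes through other organs and through blood pressure as well as through the kidney's own receptors. A receptor removed from the whole animal therefore also removes those other routes, and mice without AT1A have low blood pressure and high renin without any infusion.

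The deposited values compare every array with the median of the 12 for the same probe set, so a ratio of 1 is the middle of the study and levels of different genes cannot be compared. The SD of the log2 ratios over all probe sets was 0.268 to 0.342 in infused WT, 0.222 to 0.262 in KO at baseline, and 0.164 to 0.196 in the other 6 arrays. The mean of the 3′ minus 5′ control probe sets of Actb and Gapdh, a sign of RNA quality, was 0.0365 to 0.0665 (log2) in infused WT and -0.0402 to 0.011 in the other groups. The 2 controls did not go together. Actb was 0.0747 to 0.15 in infused WT and -0.0517 to 0.0345 in the other groups, while Gapdh in infused WT (-0.0601 to 0.0584) overlapped the other groups. The part of RNA quality in the differences below was not tested. Agtr1a itself stood at 1.369, 1.397 and 1.356 in WT at baseline and 0.957, 1.003 and 0.997 in infused WT, and at 1.043, 0.923 and 0.965 in KO at baseline and 0.983, 0.917 and 1.054 in infused KO. The ratios in KO therefore overlapped those of infused WT. Whether the probe set lies in the deleted part was not tested, and ratios do not show whether any transcript was left.

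The response to ANG II differed between the genotypes for 4404 of 45037 probe sets (9.78%), of which 2565 (5.7%) had a higher and 1839 (4.08%) a lower response in KO. A probe set is called here at a Benjamini-Hochberg adjusted p under 0.05 in limma's two-sided test over all probe sets. With 1 probe set for each of 18193 genes, 1265 genes (6.95%) were higher and 599 (3.29%) lower. All 5 comparisons share arrays, and the baseline arrays of each genotype enter both its response and the difference. The 3 genes nearest to the threshold inside it had differences of -0.54 (4933440J02Rik), 0.49 (Enoph1) and -0.38 (Ifngr1), and the 3 nearest outside had 0.43 (Mplkip), 0.39 (Apool) and 0.41 (Mrpl47), so sizes on both sides were alike. Without replicate 3 of infused KO the count was 2484, and without replicate 3 of WT at baseline it was 2868.

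Under the main setting, most of the called probe sets had the response called in WT alone. WT alone was not a majority under quantile normalization (1284 of 2879) or with a 1.5-fold minimum (929 of 2644). Nor was it one with responses called at an unadjusted p under 0.05 (2050 of 4404). The response was called in WT alone for 2634 probe sets (59.8% of the 4404; 1131 genes), in KO alone for 983 (22.3%; 392 genes), in both with opposite signs for 394 (8.95%; 191 genes), in both with the same sign for 47 (1.07%; 11 genes) and in neither for 346 (7.86%; 139 genes). For comparison, the WT response was called for 24.1% of all probe sets (10.9% rose, 13.3% fell) and the KO response for 9.91% (3.6% rose, 6.31% fell). The WT response was called for 5773 and 6921 of the probe sets without replicate 1 of WT at baseline or replicate 3 of infused WT, in place of 10876. The KO response was called for 2069 to 2969 without any 1 of the KO baseline arrays or replicate 2 or 3 of infused KO, in place of 4465. Within the WT-alone class, genes that fell in WT were more numerous (1877 probe sets, 915 genes) than genes that rose (757 probe sets, 216 genes). Within the KO-alone class, genes that fell in KO were more numerous (736 probe sets, 262 genes) than genes that rose (247 probe sets, 130 genes).

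The names of the classes say which responses passed the threshold, and a response that was not called was not shown to be absent. Of the 2634 WT-alone probe sets, 1251 had a KO estimate under 25% of the WT one in size, 517 had a KO estimate of the same sign, and for 769 the 95% interval of the KO response lay within 50% of the WT response on either side of 0. The same 3 counts for the 983 KO-alone probe sets, with the genotypes exchanged, were 510, 214 and 260. With responses called at an unadjusted p under 0.05, the opposite class held 1374 probe sets in place of 394. Quantile normalization of the deposited values left 2879 calls and 1284 in the WT-alone class. Without 1 array the KO-alone class fell to 446 (replicate 3 of infused KO) or 558 (replicate 2 of KO at baseline), and the opposite class to 186 or 207 without the same arrays. The WT-alone class fell to 1625, 1689 and 1674 without replicate 1 or 3 of WT at baseline or replicate 3 of infused KO. The class called in neither fell to 185 or 166 without replicate 3 of WT at baseline or of infused KO. The same-sign class held 12 to 31 without any 1 of the WT baseline arrays, replicate 1 of KO at baseline, or replicate 2 or 3 of infused KO.

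**Figure D1:**
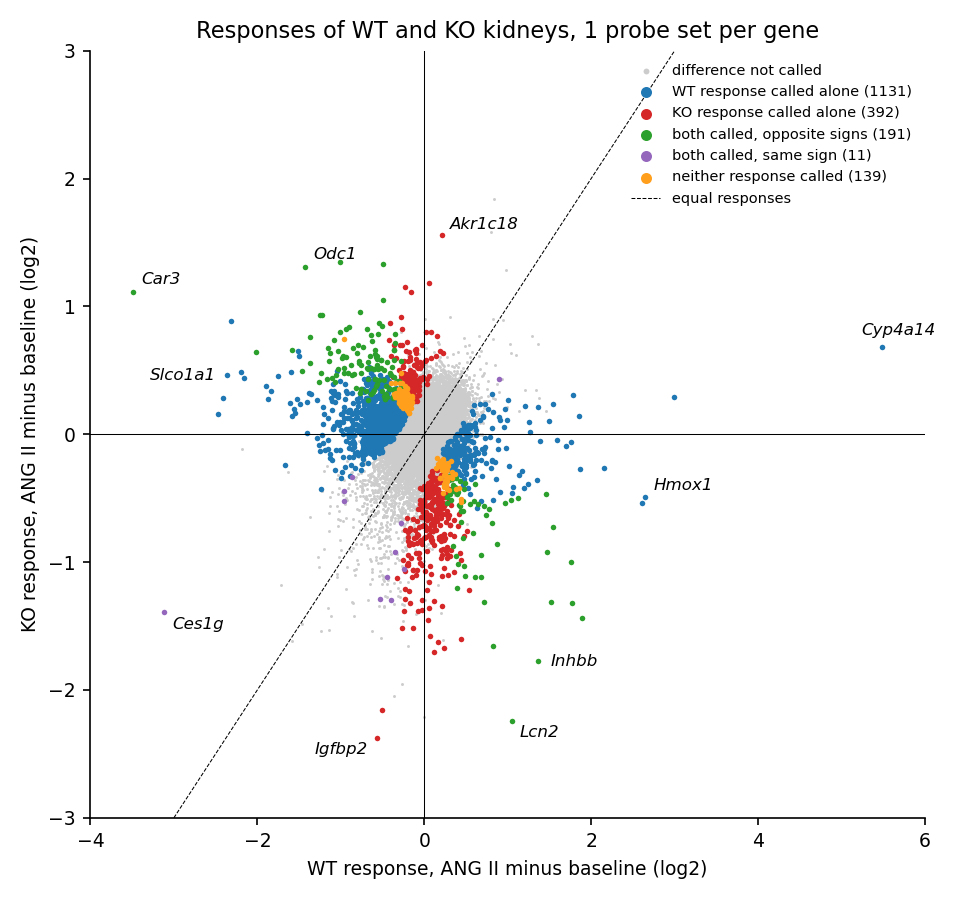
Log2 response to ANG II in WT (horizontal axis) and KO (vertical axis) for 18193 genes, 1 probe set and 1 point each, coloured by class with the number of genes in parentheses. Genes called in WT alone spread along the horizontal axis and reach 5.48 (Cyp4a14), genes called in KO alone spread along the vertical axis mostly below 0, and the dashed line marks equal responses.

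The groups that set these differences were not the same in each class. Among all probe sets, the 3 arrays of infused WT lay outside the range of the other 9 arrays for 19.7%, those of KO at baseline for 11.8%, infused KO for 3.37% and WT at baseline for 2.75%. Of the WT-alone probe sets that fell in WT, 1590 of 1877 (84.7%) had infused WT below all other arrays. Of the KO-alone probe sets that fell in KO, 552 of 736 (75%) had KO at baseline above all other arrays, and 94 (12.8%) had infused KO outside the others. Of the KO-alone probe sets that rose in KO, infused KO lay above the rest for 119 of 247 (48.2%) and KO at baseline below the rest for 72. Of the WT-alone probe sets that rose in WT, infused WT lay above the rest for 380 of 757 (50.2%), while for 200 (26.4%) WT at baseline lay below the rest. These counts describe members chosen by the same arrays and carry no test.

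The medians of the genotype differences, taken over the same arrays, followed the same lines. In the WT-alone class that fell in WT, the median of KO minus WT was -0.078 at baseline and 0.52 under ANG II on the log2 scale. In the KO-alone class that fell in KO, it was 0.57 at baseline and -0.17 under ANG II. In the opposite class, genes that rose in WT and fell in KO had 0.62 at baseline and -0.45 under ANG II, and genes that fell in WT and rose in KO had -0.24 and 0.80. Over all probe sets the genotypes differed for 6.52% at baseline and for 19.8% under ANG II, with medians of -0.033 and -0.036. The baseline count of 2936 was 1107 to 1909 without replicate 2 or 3 of WT at baseline or replicate 1 or 2 of KO at baseline. The count of 8934 under ANG II was 5021 to 5574 without replicate 3 of infused WT or replicate 1 or 3 of infused KO.

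**Figure D2:**
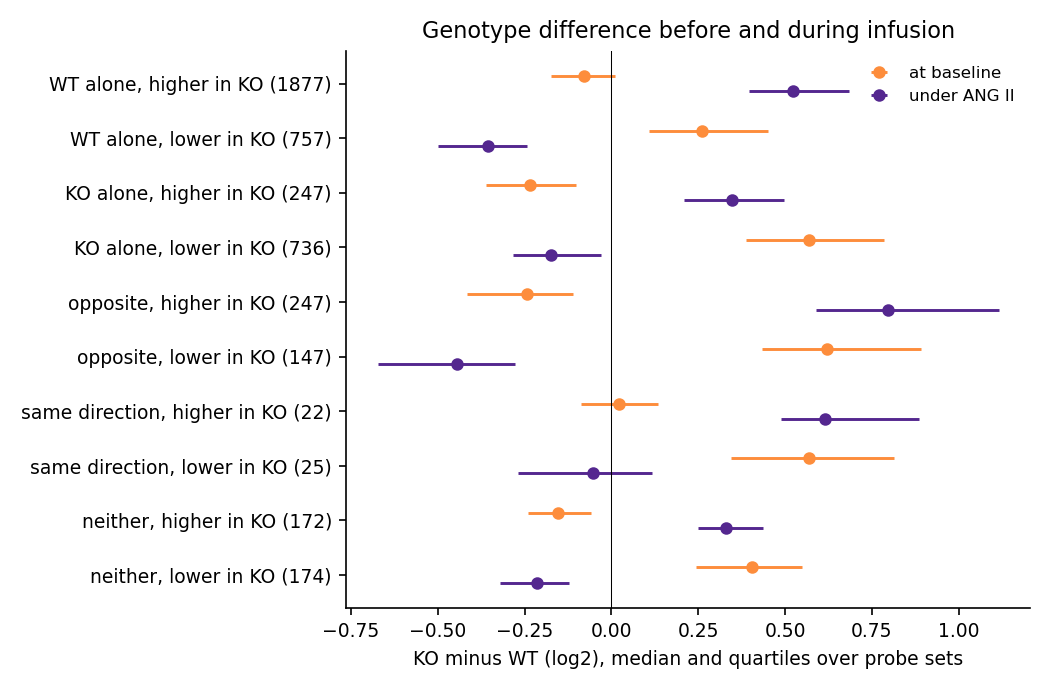
KO minus WT difference (log2) at baseline and under ANG II for the called probe sets, by class and by direction of the KO minus WT response. Points are medians, bars span the quartiles, and numbers of probe sets are in parentheses. The baseline point lies near 0 for the WT-alone probe sets with a higher response in KO and at 0.57 for the KO-alone probe sets with a lower response.

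The renin-angiotensin genes were led by 2 enzymes that cut angiotensin peptides. Ace, which makes ANG II from angiotensin I, stood at 1.066, 0.998 and 1.001 in WT at baseline and 0.598, 0.663 and 0.62 in infused WT, and at 0.975, 0.999 and 1.067 in KO at baseline and 1.247, 1.343 and 1.075 in infused KO. Infused WT lay below all other arrays and infused KO above them. Ace thus fell by 0.70 in WT, its KO change of 0.26 ± 0.091 was not called, and the difference was 0.97 ± 0.13, adjusted p = 0.000553. Anpep, aminopeptidase N, which trims shorter angiotensin peptides, behaved alike in WT, with ratios of 0.989, 0.994 and 1.117 in WT at baseline and 0.606, 0.593 and 0.649 in infused WT. In KO they were 0.983, 1.011 and 1.006 at baseline and 1.062, 1.014 and 1.077 infused, and the difference was 0.82 ± 0.11, adjusted p = 0.00063. Agtr1a fell in WT by 0.48, against 0.011 ± 0.08 in KO, a difference of 0.49 ± 0.11, adjusted p = 0.0158. Of 11 measured genes of this list, 4 were called, all with higher responses in KO, against 6.95% of all genes. The list's median was 0.39 against 0.02 over all genes.

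The fourth called gene was Agtrap, which encodes a protein that binds the AT1 receptor. Its difference of 0.46 ± 0.13, adjusted p = 0.0414 had neither response called. That call ended under quantile normalization (adjusted p = 0.0689), with the mean of the gene's probe sets (0.0887) and without any array other than replicate 2 of WT at baseline or replicate 1 of infused WT (0.0507 to 0.105). Mas1, the receptor of angiotensin (1-7), had 0.47 ± 0.14, adjusted p = 0.0578 and passed with the mean of its probe sets or with array weights. Agt, the precursor of ANG II, rose in WT by 0.58 and had a difference of -0.46 ± 0.19, adjusted p = 0.159. The remaining receptors did not pass, with Agtr1b at -0.0059 ± 0.16 and Agtr2 at 0.24 ± 0.15, nor did Enpep at 0.39 ± 0.14, Mme at -0.10 ± 0.14 and Atp6ap2 at -0.20 ± 0.10. Ren1 and Lnpep had no probe set with their symbol alone and were not analysed here. Below the receptor, 3 of 24 genes of Gq signalling and its regulators were called, all lower in KO (median -0.23), against 3.29% of all genes. The 3 were Rgs5 at -1.09 ± 0.18, Rgs4 at -0.86 ± 0.18 and Rgs2 at -0.83 ± 0.15. These are GTPase-activating proteins that shorten G protein signals. Rgs4 lost its call with the mean of its probe sets (adjusted p = 0.11). Without replicate 1 of infused WT 5 genes of the list were called.

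Among genes that rose in WT alone, the largest difference was that of Cyp4a14, a fatty acid omega-hydroxylase and target of the fatty acid sensor PPAR alpha. Its ratios were 0.762, 0.409 and 0.618 in WT at baseline and 21.37, 32.15 and 24.97 in infused WT. In KO they were 1.152, 0.848 and 0.448 at baseline and 1.19, 0.788 and 1.916 infused. Infused WT lay far above the other 9 arrays, which overlapped. The WT change was 5.48 ± 0.35, the KO change 0.68 ± 0.35 and the difference -4.80 ± 0.49, adjusted p = 7.21e-05. Hmox1, which degrades heme and is induced by oxidative stress, stood at 0.844, 0.723 and 0.744 in WT at baseline and 5.256, 3.166 and 6.646 in infused WT, and at 1.056, 1.351 and 1.284 in KO at baseline and 0.856, 0.822 and 0.944 in infused KO. The 3 infused WT arrays were again the highest, and the difference was -3.13 ± 0.28, adjusted p = 3.45e-05. Kynu, kynureninase of tryptophan breakdown, had 1.212, 0.787 and 1.079 in WT at baseline and 5.985, 3.942 and 3.845 in infused WT, and 1.023, 0.954 and 0.817 in KO at baseline and 0.662, 0.718 and 0.977 in infused KO, with a difference of -2.41 ± 0.28, adjusted p = 0.000171. Only 1 of the 2 Kynu probe sets was called.

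Of the remaining genes of this kind, Depp1, a FOXO target that acts in autophagy, ranged from 2.031 to 10.65 in infused WT against 0.649 to 1.244 in the other arrays, with a difference of -3.15 ± 0.56, adjusted p = 0.00369. Serpina6, the corticosteroid-binding globulin, ranged from 3.749 to 13.28 in infused WT and from 0.853 to 1.271 elsewhere, with -2.71 ± 0.48, adjusted p = 0.00363. The unnamed transcript 2410006H16Rik had -2.13 ± 0.35, adjusted p = 0.00242. Fga, the fibrinogen alpha chain, rose in WT by 1.35 and differed by -1.71 ± 0.22, adjusted p = 0.000442. The beta and gamma chains also rose in WT, but their differences were not called. Fgb had -0.56 ± 0.23, adjusted p = 0.138, and Fgg -0.86 ± 0.27, adjusted p = 0.0582. Alas2, the erythroid enzyme that begins heme synthesis, rose in WT by 1.38 and differed by -1.44 ± 0.23, adjusted p = 0.00172, while the other 2 measured erythroid markers were not called. Plin4, a lipid droplet protein, differed by -1.16 ± 0.25, adjusted p = 0.0114.

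Of the 6 genes named among those that fell in WT alone, 4 encode transporters. Slco1a1, an organic anion transporter of the proximal tubule brush border, stood at 0.98, 1.02 and 1.386 in WT at baseline and 0.223, 0.306 and 0.212 in infused WT, and at 0.89, 0.921 and 1.332 in KO at baseline and 1.474, 1.535 and 1.33 in infused KO. Infused WT was the only group below the rest, and the difference was 2.68 ± 0.25, adjusted p = 3.65e-05. Slc51a, the alpha subunit of a basolateral bile acid and steroid transporter, had 0.983, 0.802 and 1.22 in WT at baseline and 0.204, 0.31 and 0.17 in infused WT, and 1.063, 0.828 and 1.017 in KO at baseline and 1.249, 1.309 and 1.361 in infused KO, a difference of 2.60 ± 0.27, adjusted p = 8.36e-05. Mfsd2a, which carries lysophosphatidylcholine with docosahexaenoic acid, had 2.82 ± 0.35, adjusted p = 0.000281, and the transcript 3110040M04Rik had the largest difference of the 6, 3.20 ± 0.43, adjusted p = 0.000605. Slc7a13, an amino acid transporter of the straight proximal tubule, had 2.63 ± 0.52, adjusted p = 0.00672, and Acsm3, a medium-chain acyl-CoA synthetase, 2.69 ± 0.30, adjusted p = 0.000139. A variance trend on the mean ratio ended the calls of Acsm3 (adjusted p = 0.296), Slc7a13 (0.216) and Slc51a (0.107).

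Most genes that are known to be higher in male than in female mouse kidney fell in WT. Against 6.95% of all genes, 10 of the 15 measured had a called difference, all higher in KO, with a list median of 1.07. Such genes are maintained by androgens in the proximal tubule, and all mice here were male. In WT 12 of the 15 fell (median -0.77, against 14.5% of all genes that fell), while in KO 2 rose (4.28% of all genes) and the median was 0.28. The mean log2 ratio of the 15 genes was -1.11 to -0.737 on the infused WT arrays and 0.248 to 0.332 on the infused KO arrays. On the 6 baseline arrays it was -0.111 to 0.139, so the genotypes overlapped before infusion. Cyp2j13, a cytochrome P450, had 1.008, 0.943 and 1.28 in WT at baseline and 0.285, 0.519 and 0.294 in infused WT, and 0.97, 0.992 and 1.201 in KO at baseline and 1.398, 1.477 and 1.554 in infused KO, a difference of 2.09 ± 0.27, adjusted p = 0.000414. Other called members were Slc22a30 (2.27 ± 0.29), Cyp4a12a (1.42 ± 0.21), Timd2 (1.07 ± 0.17), Nudt19 (1.06 ± 0.14), Cyp4b1 (0.37 ± 0.10), and Odc1, Slco1a1, Acsm3 and Slc7a13.

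Members of the male list did not all move. Kap, the kidney androgen-regulated protein, had a WT change of -0.091 ± 0.073 and a difference of 0.12 ± 0.10, adjusted p = 0.548, and Cyp2e1 had 0.068 ± 0.14, adjusted p = 0.82. Slc22a12 and Cyp7b1 fell in WT, but their differences of 0.29 ± 0.20 and 0.20 ± 0.18 were not called. Mep1a, a brush border protease, had 0.19 ± 0.1. The call of Slc22a30 ended with the variance trend (adjusted p = 0.0549). The call of Cyp4b1 ended under quantile normalization (0.104) and without any array other than replicate 3 of KO at baseline (0.0506 to 0.0979). Of 7 measured genes that are known to be higher in female kidney, Cyp4a14 and Kynu were lower and Rnf24 (1.80 ± 0.29) and Akr1c18 higher in KO, with a list median of -0.80. Over all genes 3.29% were lower and 6.95% higher. Counts without 1 array ran from 7 to 10 for the male list.

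Of 30 organic anion, cation and amino acid transporters, 12 had higher responses in KO and 1 a lower one (median 0.32), against 6.95% and 3.29% of all genes. Besides those above, Slc22a7, an organic anion transporter, stood at 1.099, 0.913 and 0.621 in WT at baseline and 0.264, 0.26 and 0.201 in infused WT, and at 0.992, 1.008 and 1.383 in KO at baseline and 1.782, 1.37 and 1.151 in infused KO. Infused WT lay below every other array, and the difference was 2.17 ± 0.29, adjusted p = 0.000612. The organic cation transporter Slc22a2 had 1.03 ± 0.14, adjusted p = 0.000515 and the para-aminohippurate transporter Slc22a6 0.82 ± 0.15, adjusted p = 0.00531. Abcc4, an efflux pump, went the other way with -1.05 ± 0.17, adjusted p = 0.00246. Proximal tubule markers were higher in KO in 8 of 18 cases and lower in 1 (median 0.29), or in 2 with the WT arrays blocked on their number. They included Gatm, which makes the creatine precursor, at 1.43 ± 0.19, the glucose transporter Slc5a2 at 1.10 ± 0.15 and Acy3 at 0.96 ± 0.15. The water channel Aqp1 was the lower one, at -0.64 ± 0.11, having risen in WT by 0.34 and fallen in KO by 0.31. Under quantile normalization 5 proximal tubule markers were called as higher. The mean log2 ratio of this list was -0.229 to -0.116 on infused WT arrays and -0.0579 to 0.133 on the others, and its part in the transporter results was not tested.

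Cholesterol synthesis genes showed a like pattern at a smaller size. Idi1, isopentenyl diphosphate isomerase, stood at 1.203, 1.376 and 1.083 in WT at baseline and 0.355, 0.43 and 0.309 in infused WT, and at 0.849, 0.96 and 0.93 in KO at baseline and 1.61, 1.04 and 1.166 in infused KO. Its difference was 2.20 ± 0.22, adjusted p = 6.73e-05. Of 17 genes measured, 6 were called, all higher in KO (median 0.35), against 6.95% of all genes. Of the 17, 10 fell in WT (median -0.40), against 14.5% of all genes. Dhcr7, the last step of the pathway, had 1.37 ± 0.16, Mvd 0.98 ± 0.13, Nsdhl 0.95 ± 0.11, Fdps 0.996 ± 0.23 and Hmgcs1 0.57 ± 0.13. Of 27 oxidative phosphorylation genes, 3 were called, all higher in KO (median 0.23), a share near the 6.95% of all genes. The electron carrier Cycs was one of the 3, at 1.14 ± 0.14. That count was 1 under quantile normalization or without replicate 1 of KO at baseline or replicate 3 of infused KO, and 6 with a gene's probe sets averaged. Of 24 PPAR alpha targets and fatty acid oxidation genes, 5 were lower and 2 higher in KO (median -0.25), against 3.29% and 6.95% of all genes. Cyp4a14 and Pdk4 came first, and the fatty acid transporter Cd36 was higher at 1.18 ± 0.23. The count of lower genes was 3 under quantile normalization, and 2 or 3 without any 1 of several arrays, namely each replicate of WT at baseline, replicates 1 and 3 of infused WT, replicates 2 and 3 of KO at baseline and replicates 1 and 2 of infused KO.

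**Figure D3:**
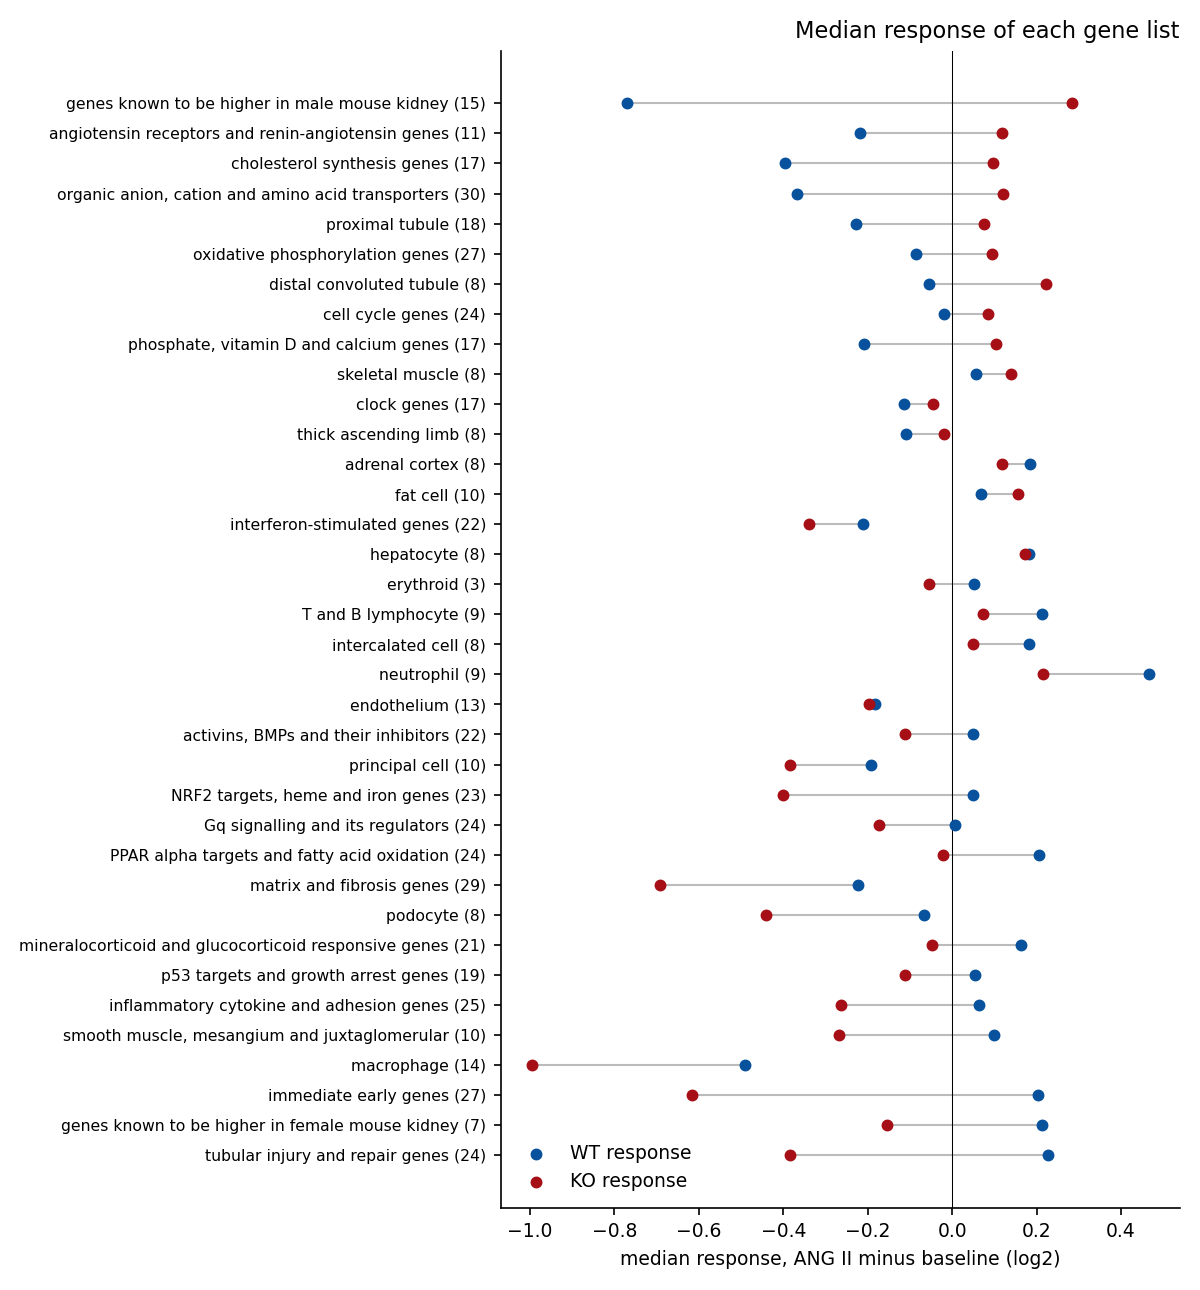
Median log2 response to ANG II in WT and KO for each gene list, with the number of measured genes in parentheses and lists ordered by the median difference. The male-higher genes have the widest span on the upper side (-0.77 in WT, 0.28 in KO), and the tubular injury genes stand at the bottom (0.23 in WT, -0.38 in KO).

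The opposite class held 62 genes that rose in WT and fell in KO and 129 that did the reverse. Inhbb, which encodes the beta subunit of activin B, stood at 0.621, 0.593 and 0.416 in WT at baseline and 1.526, 1.371 and 1.232 in infused WT, and at 2.437, 2.139 and 2.459 in KO at baseline and 0.622, 0.667 and 0.768 in infused KO. No group overlapped with its own genotype's other state. The changes were 1.36 ± 0.14 in WT and -1.78 ± 0.14 in KO, and the difference was -3.13 ± 0.20, adjusted p = 2.54e-06. Only 1 of the 2 Inhbb probe sets was called. Lcn2, the lipocalin that marks tubular injury, had 0.685, 0.574 and 0.476 in WT at baseline and 1.2, 1.071 and 1.282 in infused WT, and 4.039, 3.071 and 2.184 in KO at baseline and 0.929, 0.682 and 0.405 in infused KO, a difference of -3.29 ± 0.37, adjusted p = 0.000147. Cp, ceruloplasmin, had 0.553, 0.65 and 0.414 in WT at baseline and 1.84, 1.413 and 2.275 in infused WT, and 1.819, 1.328 and 1.409 in KO at baseline and 0.608, 0.672 and 0.533 in infused KO. Infused WT and KO at baseline overlapped in level, and the difference was -3.09 ± 0.26, adjusted p = 2.52e-05.

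Pdk4, a kinase that shuts pyruvate out of oxidation, differed by -3.32 ± 0.46, adjusted p = 0.000766, and Arg2, mitochondrial arginase, by -2.83 ± 0.29, adjusted p = 7.21e-05. Igfbp1, which binds insulin-like growth factors, took another course. Its ratios were 1.315, 1.304 and 1.182 in WT at baseline and 6.074, 5.014 and 2.549 in infused WT, and 0.818, 0.581 and 0.71 in KO at baseline and 0.437, 0.265 and 0.365 in infused KO. The KO ratios lay below those of WT before infusion (baseline difference -0.86 ± 0.26, adjusted p = 0.0616, not called) and were lowest under ANG II, with a difference of -2.75 ± 0.36, adjusted p = 0.000518. Other called members of the lists were the cell cycle inhibitor Cdkn1a at -2.26 ± 0.30, Sesn2 at -1.62 ± 0.18 and the glutathione transferase Gsta2, which differed by -1.60 ± 0.16, adjusted p = 8.07e-05, with infused KO (0.38, 0.396 and 0.514) below all other arrays.

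Mineralocorticoid and glucocorticoid responsive genes were lower in KO in 7 of 21 cases and higher in 2 (median -0.32), against 3.29% and 6.95% of all genes. Over the other settings these counts were 5 to 9 and 1 to 2. Fkbp5, counted as lower (-0.90 ± 0.27, adjusted p = 0.0481), had 1 of its 3 probe sets called and lost its call in 14 settings. Hsd11b1, counted as higher (0.77 ± 0.22, adjusted p = 0.0422), lost its call in 12. Sgk1, the kinase that aldosterone and glucocorticoids induce and that raises sodium channel activity, stood at 0.801, 0.642 and 0.749 in WT at baseline and 1.292, 1.432 and 1.275 in infused WT, and at 1.462, 1.389 and 1.199 in KO at baseline and 0.795, 0.666 and 0.767 in infused KO. KO at baseline overlapped infused WT, infused KO overlapped WT at baseline, and the pairs did not overlap each other. Sgk1 rose in WT by 0.87, fell in KO by 0.86 and differed by -1.73 ± 0.15, adjusted p = 3.2e-05. Scnn1a, a subunit of the epithelial sodium channel, rose in WT by 0.67 and differed by -0.56 ± 0.13, adjusted p = 0.0193, a call that ended without replicate 3 of WT at baseline (0.0502) or replicate 3 of infused KO (0.0503). The glucocorticoid receptor Nr3c1 was higher, at 0.66 ± 0.13, adjusted p = 0.00762, with 3 of its 6 probe sets called. Dusp1 and Per1 were lower at -1.42 ± 0.15 and -1.27 ± 0.26, as was endothelin 1 (Edn1) at -0.74 ± 0.17. The mineralocorticoid receptor Nr3c2 had -0.14 ± 0.11, not called. Tsc22d3 had -0.32 ± 0.19, not called at the probe set used here, but 2 of its 4 probe sets were called as lower in KO.

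The sequence upstream of start sites was searched for the element that the glucocorticoid and mineralocorticoid receptors share, taken as GNACA and, 3 bases on, TGTNC, on both strands, in the 250 bases before the start of 14452 measured genes with a RefSeq promoter in build GRCm38.p6. It was found in 51 of them (0.353%) and in 4 of the 49 genes with a window among the 62 that rose in WT and fell in KO (8.16%), which are Sgk1, Map3k6, Slc10a6 and Txnip. Among the 262 genes that fell in KO alone it was found in 2 of 203 with a window. This was 1 of 9 motifs searched, all chosen with the results known, and a match is a description, not a site of binding. Among the 106 genes with a window that fell in WT and rose in KO it was found in 1, St8sia1, a sialyltransferase (1.82 ± 0.18, adjusted p = 6.65e-05). The windows shown are those of the 4 genes that rose in WT and fell in KO, the class with the higher share, and capitals mark the matched bases. They lie at chr10:21993640-21993889, plus strand (Sgk1, 1 of 6 start-site windows), chr4:133240568-133240817, plus strand (Map3k6), chr5:103629404-103629653, minus strand (Slc10a6) and chr3:96557707-96557956, plus strand (Txnip), and each is written 5′ to 3′ on the gene's strand.
Sgk1: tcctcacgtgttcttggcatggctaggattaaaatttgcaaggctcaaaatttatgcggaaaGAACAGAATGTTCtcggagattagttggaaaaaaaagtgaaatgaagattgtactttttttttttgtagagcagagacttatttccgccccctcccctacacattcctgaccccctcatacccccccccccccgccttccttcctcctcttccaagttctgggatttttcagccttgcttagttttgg
Map3k6: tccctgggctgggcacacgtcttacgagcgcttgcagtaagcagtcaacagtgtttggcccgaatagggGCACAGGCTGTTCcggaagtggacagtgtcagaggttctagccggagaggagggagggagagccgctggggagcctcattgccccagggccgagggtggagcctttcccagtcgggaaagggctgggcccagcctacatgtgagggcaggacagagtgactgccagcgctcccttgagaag
Slc10a6: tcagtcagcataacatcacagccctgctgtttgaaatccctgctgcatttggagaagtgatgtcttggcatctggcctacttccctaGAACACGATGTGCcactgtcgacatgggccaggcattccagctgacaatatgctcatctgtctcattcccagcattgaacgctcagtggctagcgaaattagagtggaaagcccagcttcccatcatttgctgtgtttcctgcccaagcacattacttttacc
Txnip: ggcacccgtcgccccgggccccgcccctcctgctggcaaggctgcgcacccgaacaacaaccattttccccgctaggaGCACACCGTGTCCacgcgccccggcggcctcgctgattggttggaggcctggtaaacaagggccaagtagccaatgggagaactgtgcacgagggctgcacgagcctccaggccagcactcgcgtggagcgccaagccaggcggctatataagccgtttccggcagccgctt

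Map3k6, a stress-activated kinase, stood at 0.926, 0.881 and 0.762 in WT at baseline and 1.632, 1.27 and 1.384 in infused WT, and at 1.52, 1.321 and 1.021 in KO at baseline and 0.628, 0.979 and 0.891 in infused KO, a difference of -1.37 ± 0.24, adjusted p = 0.0035. Slc10a6, a transporter of sulphated steroids, had 0.699, 0.783 and 0.703 in WT at baseline and 1.215, 1.312 and 1.299 in infused WT, and 1.713, 1.096 and 1.195 in KO at baseline and 0.649, 0.902 and 0.904 in infused KO, a difference of -1.50 ± 0.22, adjusted p = 0.00106. Txnip, which binds thioredoxin and limits glucose uptake, had 0.897, 0.777 and 0.907 in WT at baseline and 1.093, 1.103 and 1.15 in infused WT, and 1.362, 1.29 and 1.447 in KO at baseline and 0.733, 0.727 and 0.662 in infused KO, a difference of -1.33 ± 0.12, adjusted p = 3.65e-05. In all 3 genes each genotype's infused arrays lay apart from its baseline arrays, upward in WT and downward in KO. The class was chosen by these directions, and 60 of its 62 genes lay apart in this way, so this is not particular to the 3. The other motifs searched, on both strands and free to overlap, had these shares in the set of 49 and in all 14452. The E box CACGTG was in 8.16% and 8.73%, the AP-1 element TGANTCA in 10.2% and 6.7%, and the cyclic AMP element TGACGTCA in 2.04% and 2.5%. The antioxidant core TGANNNNGC was in 38.8% and 40.6%, the C/EBP element TTGCNNAA in 10.2% and 9.65%, and the CArG box of serum response factor in 4.08% and 1.43%. The PPAR element (AGGNCA repeated 1 base on) was in 0% and 0.394%, and the sterol element (ATCAC and, 1 base on, CCAC) in 0% and 0.194%.

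The genes that fell in WT and rose in KO were led by Car3, a carbonic anhydrase abundant in fat and muscle. It stood at 1.801, 2.041 and 1.631 in WT at baseline and 0.121, 0.212 and 0.163 in infused WT, and at 0.75, 0.531 and 0.586 in KO at baseline and 1.4, 1.35 and 1.25 in infused KO. Infused WT was lowest and WT at baseline highest, with both KO groups between them. The WT change was -3.50 ± 0.17, the KO change 1.11 ± 0.17 and the difference 4.61 ± 0.24, adjusted p = 6.53e-07, a call that the variance trend ended (adjusted p = 0.0744). The other 9 measured fat cell markers included 1 called gene, Plin4, which moved the opposite way. Adipoq had -0.32 ± 0.23, Fabp4 -0.52 ± 0.34, Cidec 0.20 ± 0.13 and Lep -0.047 ± 0.16, none called. Odc1, the first enzyme of polyamine synthesis, had 1.049, 0.951 and 1.198 in WT at baseline and 0.416, 0.403 and 0.369 in infused WT, and 0.837, 0.925 and 1.359 in KO at baseline and 2.698, 2.354 and 2.522 in infused KO. The genotypes overlapped at baseline and lay on opposite sides of it under ANG II, with a difference of 2.73 ± 0.21, adjusted p = 1.32e-05.

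Further genes of this kind were Gm32461 (2.66 ± 0.26, adjusted p = 5.61e-05), Smcp, a cysteine-rich protein of mitochondria (2.35 ± 0.19, adjusted p = 1.32e-05), Cenpj, which acts in centriole assembly (2.24 ± 0.16, adjusted p = 7.52e-06), and the glucuronosyltransferase Ugt2a3 (2.18 ± 0.20, adjusted p = 3.6e-05). Of 17 phosphate, vitamin D and calcium genes, 4 were higher and 1 lower in KO (median 0.12), against 6.95% and 3.29% of all genes. Slc34a3, a sodium phosphate cotransporter, stood at 1.491, 1.413 and 1.474 in WT at baseline and 0.748, 0.796 and 0.741 in infused WT, and at 0.793, 0.798 and 0.656 in KO at baseline and 1.202, 1.236 and 1.557 in infused KO. Its infused WT and baseline KO arrays overlapped, and so did WT at baseline and infused KO, and the difference was 1.76 ± 0.15, adjusted p = 2.6e-05. Kl, klotho, differed by 0.77 ± 0.12, adjusted p = 0.00193. The count of 4 was 2 without replicate 3 of WT at baseline, replicate 2 of infused WT, replicate 3 of KO at baseline, or replicate 1 or 3 of infused KO. The count of lower genes was 2 with the WT arrays blocked on their number.

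**Figure D4:**
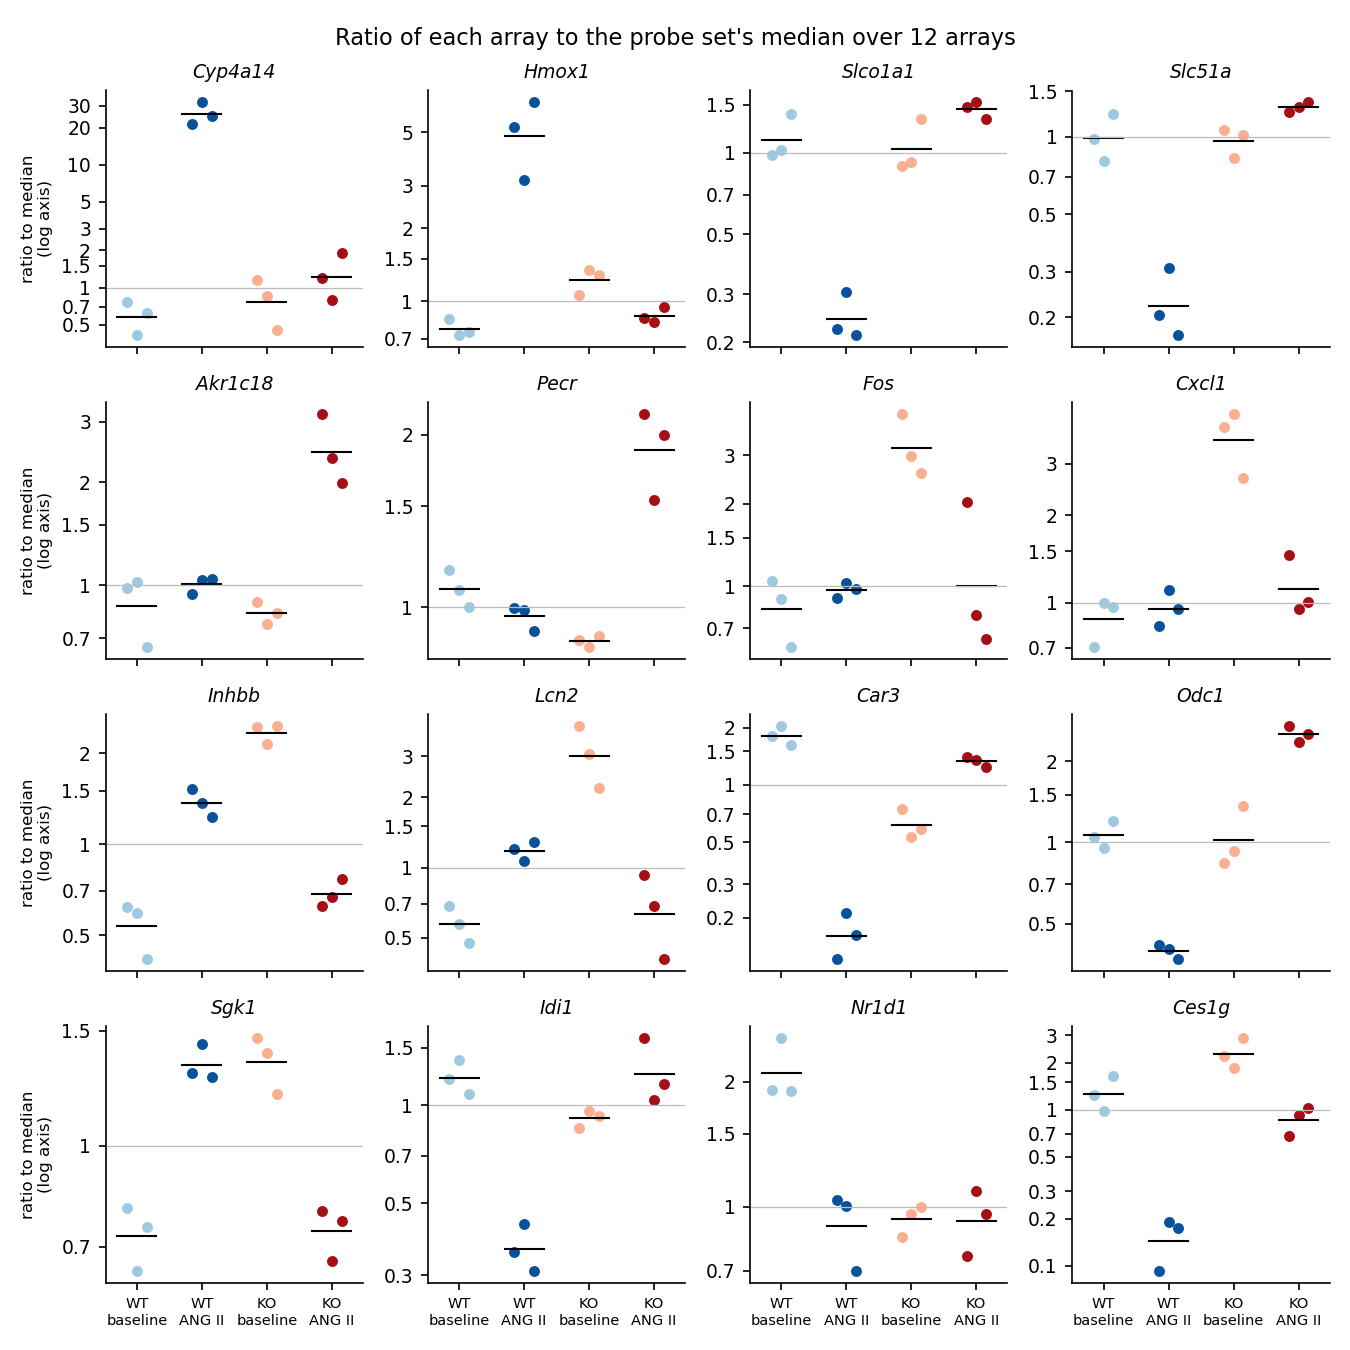
Deposited ratios (array over the 12-array median of the probe set) for 16 genes, on a log axis, with 3 points per group and a line at the geometric mean. Cyp4a14 and Hmox1 are high and Slco1a1, Slc51a and Idi1 low in infused WT only, Fos and Cxcl1 are high in KO at baseline, and Sgk1 crosses over between the genotypes.

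The 6 genes named among those that fell in KO alone were all highest in KO at baseline. Cxcl1, a chemokine that draws neutrophils, stood at 0.702, 0.996 and 0.963 in WT at baseline and 0.829, 1.103 and 0.949 in infused WT, and at 4.019, 4.453 and 2.675 in KO at baseline and 1.461, 0.948 and 1.004 in infused KO. The 3 KO baseline arrays lay above all others, and the difference was -1.82 ± 0.29, adjusted p = 0.00183. Cd44, a hyaluronan receptor, had 0.659, 0.748 and 0.547 in WT at baseline and 0.593, 0.975 and 0.661 in infused WT, and 4.021, 3.923 and 2.65 in KO at baseline and 1.333, 1.047 and 1.025 in infused KO, a difference of -1.79 ± 0.28, adjusted p = 0.00158. Serpina3n, an acute phase protease inhibitor, had -2.04 ± 0.24, adjusted p = 0.000187, Igfbp2 -1.80 ± 0.41, adjusted p = 0.0145 and Thbs2, a matrix protein, -1.75 ± 0.27, adjusted p = 0.00164. In each of the 3 the KO baseline arrays were the highest.

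Immediate early genes, which cells switch on within minutes of a stimulus, were lower in KO in 13 of 27 cases and higher in 0 (median -0.70). Over all genes these shares were 3.29% and 6.95%. Of the 13, 10 were in the KO-alone class. Before infusion 15 of the 27 were higher in KO than in WT (background 4.52% of genes; median 0.63), over arrays that the difference shares. Fos, a subunit of the AP-1 transcription factor, stood at 1.039, 0.898 and 0.598 in WT at baseline and 0.905, 1.022 and 0.978 in infused WT, and at 4.241, 2.983 and 2.582 in KO at baseline and 2.025, 0.781 and 0.64 in infused KO. Its difference of -1.90 ± 0.47, adjusted p = 0.022 lost its call under quantile normalization (0.0863) and without replicate 3 of WT at baseline (0.058), replicate 1 of KO at baseline (0.0537) or replicate 3 of infused KO (0.0532). Btg2, an antiproliferative factor, had 1.019, 0.971 and 0.749 in WT at baseline and 0.917, 1.268 and 1.166 in infused WT, and 2.428, 1.663 and 1.858 in KO at baseline and 0.981, 0.847 and 0.913 in infused KO, a difference of -1.39 ± 0.22, adjusted p = 0.00184. Junb differed by -1.11 ± 0.25, Klf2 by -1.001 ± 0.21, Klf4 by -1.02 ± 0.20 and Klf6 by -0.90 ± 0.17, all called. Myc rose in WT by 0.69 and differed by -1.02 ± 0.18, adjusted p = 0.00349. Without replicate 3 of WT at baseline, or replicate 3 of infused KO, 8 of the list were called.

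Zfp36, which binds AU-rich mRNAs and speeds their decay, and Egr2, a zinc finger transcription factor, are immediate early genes whose upstream windows hold a CArG box, the element of serum response factor, spelled CC, 6 bases of A or T, and GG. It was found in 2 of 203 genes that fell in KO alone (0.985%) against 207 of 14452 (1.43%), so its share in that class was no higher than in all genes. The windows lie at chr10:67537316-67537565, plus strand (Egr2, 1 of 5 start-site windows) and chr7:28379229-28379478, minus strand (Zfp36), with the match in capitals.
Egr2: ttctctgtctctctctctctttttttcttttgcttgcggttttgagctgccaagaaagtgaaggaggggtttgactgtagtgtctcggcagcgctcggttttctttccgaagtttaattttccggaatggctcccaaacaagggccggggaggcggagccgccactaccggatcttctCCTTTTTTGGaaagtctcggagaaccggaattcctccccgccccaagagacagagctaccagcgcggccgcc
Zfp36: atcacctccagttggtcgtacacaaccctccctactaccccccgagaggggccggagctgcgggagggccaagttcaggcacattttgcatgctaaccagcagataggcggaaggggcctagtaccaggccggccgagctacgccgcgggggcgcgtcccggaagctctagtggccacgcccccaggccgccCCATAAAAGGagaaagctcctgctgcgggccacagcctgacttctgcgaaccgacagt
Zfp36 stood at 1.042, 0.99 and 1.22 in WT at baseline and 0.925, 1.01 and 0.827 in infused WT, and at 1.814, 1.858 and 1.628 in KO at baseline and 0.88, 0.666 and 0.753 in infused KO, a difference of -0.98 ± 0.17, adjusted p = 0.00283. Egr2 was high only in KO at baseline (4.935, 2.928 and 1.841), with a difference of -1.34 ± 0.36, adjusted p = 0.03. That call ended under quantile normalization (0.0576) and without each replicate of WT at baseline, replicate 2 or 3 of infused WT, replicate 2 of KO at baseline, or replicate 2 or 3 of infused KO (0.0507 to 0.0767). Blocking the WT arrays on their number ended it too (0.0512).

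Tubular injury and repair genes were lower in KO in 13 of 24 cases and higher in 0 (median -0.82), against 3.29% and 6.95% of all genes. They were split over the classes, with 4 that rose in WT alone, 6 that fell in KO alone and 3 that did both. The count of 13 was 10 under quantile normalization and 9 to 14 over the other settings. Among the 13, Havcr1, Vim, Sox9 and Vcam1 lost their calls in 11, 8, 6 and 4 settings. Besides Lcn2, Hmox1, Cp, Cdkn1a, Cd44 and Fga, the keratin Krt18 differed by -1.08 ± 0.22 and the protease inhibitor Timp1 by -1.12 ± 0.24. The mean log2 ratio of the list was -0.381 to -0.183 in WT at baseline and 0.227 to 0.246 in infused WT. In KO it was 0.255 to 0.606 at baseline and -0.16 to 0.0423 infused. Matrix and fibrosis genes were higher in KO than in WT at baseline in 17 of 29 cases (median 0.87), against 4.52% of all genes. In KO 13 of the 29 fell, against 5.73% of all genes. Their mean was 0.395 to 0.989 on the KO baseline arrays and -0.56 to 0.281 on the other 9. Their responses were lower in KO in 5 cases and higher in 1 (median -0.27), with Mgp lower at -1.55 ± 0.33, Ccn2 at -1.50 ± 0.26, Lox at -1.29 ± 0.26, Mmp2 at -0.72 ± 0.15 and Thbs2 as above, and Timp3 higher at 0.62 ± 0.15. The call of Timp3 ended without replicate 3 of WT at baseline, replicate 2 of KO at baseline or replicate 3 of infused KO (0.0503 to 0.0524). For Timp3 2 of 4 probe sets were called, and for Mmp2 1 of 2. That count of 5 was 8 with a gene's probe sets averaged or without replicate 3 of KO at baseline. Inflammatory cytokine and adhesion genes were lower in KO in 7 of 25 cases and higher in 1 (median -0.32), with the NF-kappa B inhibitor Nfkbia lower at -1.16 ± 0.14 and the mucosal chemokine Ccl28 higher at 1.13 ± 0.24. The count of 7 was 4 without replicate 1 or 2 of KO at baseline.

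The KO baseline arrays also stood apart in markers of macrophages. The mean log2 ratio of 14 macrophage markers was 0.687 to 1.25 on those arrays and -0.661 to 0.314 on the other 9. At baseline 10 of the 14 were higher in KO than in WT, against 4.52% of all genes. The difference of the responses was called for 2 of the 14, both lower in KO (median -0.48), against 3.29% of all genes. The 2 were Cd14 at -0.98 ± 0.22 and Lyz2 at -1.66 ± 0.47. The call of Cd14 ended under quantile normalization (adjusted p = 0.0653). The call of Lyz2 ended without replicate 1 or 3 of WT at baseline, replicate 2 of infused WT, replicate 1 or 2 of KO at baseline, or replicate 2 or 3 of infused KO (0.0707 to 0.098). Markers of other cells moved with the same arrays at a smaller size. The means on the KO baseline arrays were 0.122 to 0.432 for 8 podocyte markers (at most 0.0455 on the other 9 arrays), 0.228 to 0.265 for 13 of endothelium (at most 0.122) and 0.195 to 0.287 for 10 of principal cells (at most 0.178). For 10 of smooth muscle, mesangium and juxtaglomerular cells they were 0.126 to 0.548 and overlapped infused KO, which reached 0.172. Markers of neutrophils (-0.384 to -0.233), distal convoluted tubule (-0.14 to -0.121), hepatocytes (-0.143 to -0.0828), skeletal muscle (-0.174 to -0.101) and adrenal cortex (-0.204 to -0.13) had their lowest means on those arrays. The part of any of these cells in the KO-alone results was not tested. Markers of neutrophils and of T and B lymphocytes had 0 called of 9 each in limma's test (medians -0.117 and -0.115), with 1 and 3 at an unadjusted p under 0.05.

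Fewer genes rose than fell in KO alone (130 against 262), with a median KO change of 0.44 over their probe sets against -0.63. Akr1c18, which inactivates progesterone, stood at 0.98, 1.02 and 0.66 in WT at baseline and 0.946, 1.035 and 1.047 in infused WT, and at 0.896, 0.77 and 0.833 in KO at baseline and 3.159, 2.345 and 1.99 in infused KO. Only infused KO lay above the rest, and the difference was 1.35 ± 0.24, adjusted p = 0.00378. Pecr, a peroxisomal enoyl-CoA reductase, had 1.16, 1.074 and 1.002 in WT at baseline and 0.998, 0.988 and 0.91 in infused WT, and 0.876, 0.852 and 0.89 in KO at baseline and 2.174, 1.54 and 1.998 in infused KO, a difference of 1.27 ± 0.16, adjusted p = 0.000349. Anxa13, an epithelial annexin, had 0.978, 1.028 and 1.022 in WT at baseline and 0.843, 0.717 and 1.048 in infused WT, and 0.69, 0.735 and 0.671 in KO at baseline and 1.443, 1.536 and 1.696 in infused KO. Its infused KO arrays were the highest, with a difference of 1.39 ± 0.17, adjusted p = 0.000231. Zfp365 (1.29 ± 0.23, adjusted p = 0.00393), Fcamr, a receptor of IgA and IgM (1.198 ± 0.21, adjusted p = 0.00378), and Sectm1a (1.16 ± 0.26, adjusted p = 0.0153) followed. Only 1 of the 2 Zfp365 probe sets was called.

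There were 11 genes called in both genotypes with the same sign. Ces1g, a carboxylesterase, stood at 1.243, 0.975 and 1.647 in WT at baseline and 0.0921, 0.189 and 0.173 in infused WT, and at 2.196, 1.834 and 2.875 in KO at baseline and 0.673, 0.927 and 1.025 in infused KO. It fell by 3.12 in WT and by 1.39 in KO, a difference of 1.73 ± 0.37, adjusted p = 0.011, which ended with the variance trend (0.0528) and quantile normalization (0.0647). Chst15, a sulphotransferase, fell by 0.24 in WT and by 1.06 in KO (-0.82 ± 0.12, adjusted p = 0.000833), and Snrnp70, of the U1 splicing complex, by 0.40 and 1.29 (-0.89 ± 0.18, adjusted p = 0.00837). In both the KO baseline arrays were the highest. Of the 4 probe sets of Snrnp70 only 1 was called. Tle1, a corepressor, had -0.75 ± 0.21, adjusted p = 0.0339, a call that ended with the mean of its probe sets (0.106) and without each replicate of WT at baseline, replicate 1 or 2 of KO at baseline, or replicate 1 or 3 of infused KO (0.0526 to 0.0818).

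In 3 of the 4 called clock genes WT at baseline was the group apart. Nr1d1, a repressor of the circadian loop, stood at 1.913, 2.554 and 1.902 in WT at baseline and 1.035, 1.003 and 0.698 in infused WT, and at 0.843, 0.959 and 0.997 in KO at baseline and 0.758, 1.09 and 0.958 in infused KO. The 3 WT baseline arrays lay above the other 9, and the difference was 1.22 ± 0.24, adjusted p = 0.00645. Cry1, a repressor that acts late in the cycle, had 0.582, 0.2 and 0.328 in WT at baseline and 1.171, 0.873 and 1.268 in infused WT, and 1.255, 1.246 and 0.916 in KO at baseline and 1.196, 0.958 and 1.042 in infused KO, a difference of -1.78 ± 0.40, adjusted p = 0.0133. Nfil3, which opposes the activator Dbp, had 0.554, 0.3 and 0.469 in WT at baseline and 1.432, 1.023 and 1.47 in infused WT, and 1.047, 1.158 and 0.931 in KO at baseline and 1.113, 0.944 and 0.977 in infused KO, a difference of -1.64 ± 0.27, adjusted p = 0.00243. In both, the WT baseline arrays lay below the rest. Dbp itself had 2.06 ± 0.63, adjusted p = 0.0541, and Nr1d2 had 0.91 ± 0.37, adjusted p = 0.142. For each of these genes 1 of its 2 probe sets was called as higher in KO. Of 17 clock genes, 1 was higher and 3 lower in KO (median 0.083), against 6.95% and 3.29% of all genes. Over the other settings 1 to 4 of the list were higher. The labels used here give no hour of collection.

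NRF2 targets, heme and iron genes were lower in KO in 6 of 23 cases and higher in 2 (median -0.21), against 3.29% and 6.95% of all genes. The 2 were the transferrin receptor Tfrc at 1.66 ± 0.24 and malic enzyme Me1 at 0.67 ± 0.11. Targets of p53 and growth arrest genes were lower in 3 of 19 (median -0.32), against 3.29% of all genes. That count was 6 with a gene's probe sets averaged and 5 without replicate 3 of KO at baseline. Activins, BMPs and their inhibitors were lower in 3 of 22 (median -0.19), of which only 1 was called without replicate 2 or 3 of WT at baseline, replicate 3 of infused WT, replicate 1 or 2 of KO at baseline or replicate 3 of infused KO. Interferon-stimulated genes were higher in KO than in WT in 12 of 22 cases at baseline, against 4.52% of all genes. In WT 8 of the 22 fell and in KO 11, against 14.5% and 5.73% of all genes. Their mean was 0.297 to 0.423 on the KO baseline arrays and at most 0.0651 on the other 9. The responses differed, as lower in KO, for 1 of the 22 (Gbp3 at -0.83 ± 0.18; median -0.105), and cell cycle genes were higher in 1 of 24 (Mcm6; median 0.13).

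Among markers of other kidney cells, thick ascending limb (1 of 8, Cldn16, median 0.073), distal convoluted tubule (1 of 8, Pvalb, 0.18) and intercalated cells (1 of 8, Car2, -0.12) had called genes with higher responses in KO. Over all genes 6.95% were called as higher and 3.29% as lower. Pvalb, a calcium-binding protein, differed by 1.35 ± 0.18, adjusted p = 0.000527 and is also a skeletal muscle marker, where it was the 1 called of 8 (median 0.087). Principal cell (10 measured, median -0.20) and adrenal cortex markers (8 measured, -0.016) had 0 calls in limma's test, with 1 and 0 at an unadjusted p under 0.05. Podocytes had 1 lower call of 8 (Wt1, -0.30), smooth muscle, mesangium and juxtaglomerular cells 2 of 10 (Rgs5 and Gata3, -0.38), and erythroid cells 1 of 3 (Alas2, -0.11). Endothelium had 2 higher and 2 lower of 13 (-0.15), with the VEGF receptor Kdr higher at 0.68 ± 0.11 and Vwf lower at -1.04 ± 0.27, and with the WT arrays blocked on their number 1 was lower. Fat cells had 1 higher (Car3) and 1 lower (Plin4) of 10 (-0.019), and hepatocytes 1 higher of 8, the thyroid hormone carrier Ttr at 1.48 ± 0.21, adjusted p = 0.000971 (-0.11). Several of these calls were lost under other settings, with the adjusted p in parentheses. That of Cldn16 ended without replicate 1 or 2 of WT at baseline, replicate 2 of infused WT, replicate 1 or 3 of KO at baseline or replicate 1 or 2 of infused KO (0.0532 to 0.0648) and under quantile normalization (0.0818). That of Car2 ended without replicate 1 or 3 of WT at baseline, replicate 1 or 3 of infused WT, replicate 1 or 3 of KO at baseline or replicate 2 or 3 of infused KO (0.0504 to 0.087) and under quantile normalization (0.0599) and with the replicate block (0.0507). That of Wt1 ended without replicate 1 or 3 of WT at baseline, replicate 1 or 2 of infused WT, replicate 1 of KO at baseline or replicate 2 of infused KO (0.0507 to 0.0685). That of Gata3 ended without replicate 2 or 3 of WT at baseline, replicate 1, 2 or 3 of infused WT, replicate 1 or 2 of KO at baseline or replicate 3 of infused KO (0.0629 to 0.111) and with the variance trend (0.0564) and under quantile normalization (0.131) and with the replicate block for the WT arrays (0.0639). That of Vwf ended without replicate 3 of WT at baseline, replicate 2 of infused WT or replicate 1 of KO at baseline (0.0638 to 0.0675) and under quantile normalization (0.0895). That of Mcm6 ended without replicate 1 or 2 of WT at baseline, replicate 3 of infused WT, replicate 2 or 3 of KO at baseline or replicate 1 or 3 of infused KO (0.063 to 0.088) and under quantile normalization (0.0651) and with the array weights (0.0568).

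**Figure D5:**
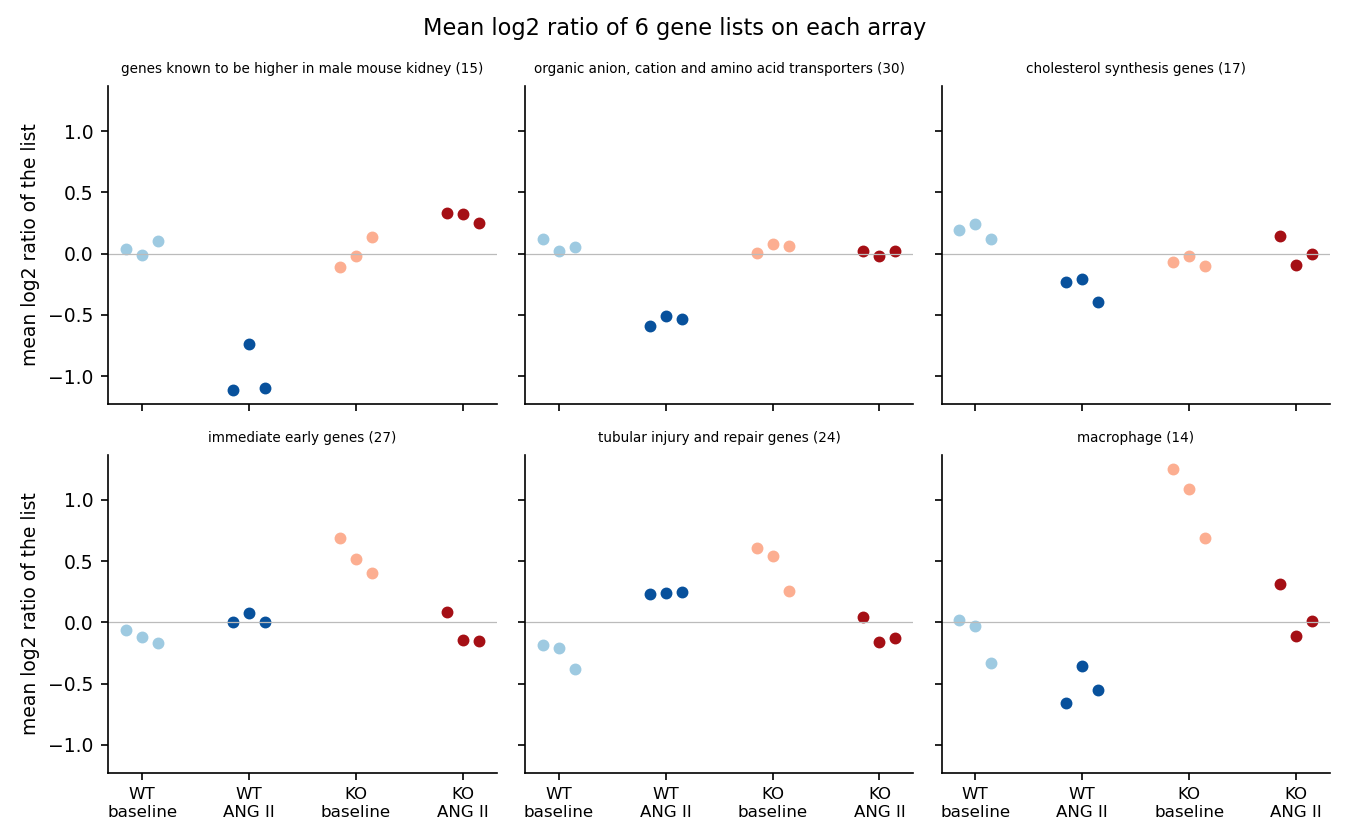
Mean log2 ratio of 6 gene lists on each of the 12 arrays, 1 point per array in 4 groups, with the number of genes in parentheses. The male-higher genes and transporters are low in infused WT alone, and immediate early genes and macrophage markers are high in KO at baseline, where the macrophage mean is 0.687 to 1.25.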

How the data were processed

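Kidney RNA of 12 mice was measured on 1 Affymetrix array each, with 3 mice in each of 4 groups taken from the labels. The deposited values are ratios of an array to the probe set's median over the 12 arrays, as the values themselves show (45099 of 45101 medians lie within 0.002 of 1). The submitters' processing notes name RMA, without a version. Ratios carry no signal level, so brightness over background and the depth of each value are unknown, and the number of arrays limits the precision.

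Ratios were taken to log2, 64 control probe sets were left out, and limma 3.58.1 in R 4.3.3 was fitted to 45037 probe sets with 1 mean per group. The residual degrees of freedom were 8 and the prior ones 5.83. The 5 comparisons were 2 responses, 2 genotype differences and the difference between the responses, each two-sided with Benjamini-Hochberg adjustment over all probe sets at 0.05. Errors are limma's standard errors on the log2 scale (± in the text). The step was run on simulated data with independent noise for each value, which does not test the error rate of the calls in these arrays. The labels do not say whether mice shared a litter or a day, so p-values measure the spread between these mice only. The fit has no replicate block. The numbers come from the labels, which do not say whether they pair arrays. All 3 same-numbered pairs of infused and baseline WT correlated over 0.1 in their deviations from the group means. These correlations were 0.128 to 0.186, against -0.182 to 0.019 in the other WT pairs. In no other pair of groups did all 3 pairs exceed 0.1, but same-numbered infused KO and baseline WT arrays reached 0.219, and differently numbered pairs reached 0.236. A fit with the number as a block for the WT arrays was added after seeing the data.

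Probe sets were named from the platform annotation, in which 34945 have 1 symbol, 932 several and 9160 none. A gene is its plain probe set with 1 symbol and the lowest number. In each class and direction, the 6 genes with the largest difference whose infused and baseline arrays did not overlap in the responding genotype are named, 4 for the same direction, with the renin-angiotensin genes and up to 3 called genes per list. Further genes were chosen after their values were seen. The members and the 36 gene lists (20 of pathways, 16 of cell types) were chosen with earlier results of these data known. Alternatives were another variance model, normalization, gene summary, filter, threshold, array weights, a replicate block and each array left out. The list counts under each setting were added after seeing the data. Columns of samples outside the series numbered 0.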

Additional observations from a re-analysis of the deposited data

Results flagged for a closer look

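The response to ANG II differed between WT and KO for 4404 probe sets by limma's test of the difference itself. The genes listed here were chosen among those called by that test, so their passing it is not further support. Values are KO minus WT responses on the log2 scale, with 3 mice in each of the 4 groups. Genes that rose in WT alone were Cyp4a14 (-4.80), Depp1 (-3.15), Hmox1 (-3.13), Serpina6 (-2.71), Kynu (-2.41) and 2410006H16Rik (-2.13). Genes that fell in WT alone were 3110040M04Rik (3.20), Mfsd2a (2.82), Acsm3 (2.69), Slco1a1 (2.68), Slc7a13 (2.63) and Slc51a (2.60). Genes that rose in KO alone were Anxa13 (1.39), Akr1c18 (1.35), Zfp365 (1.29), Pecr (1.27), Fcamr (1.198) and Sectm1a (1.16), and genes that fell in KO alone were Serpina3n (-2.04), Fos (-1.90), Cxcl1 (-1.82), Igfbp2 (-1.80), Cd44 (-1.79) and Thbs2 (-1.75). Those that rose in WT and fell in KO were Pdk4 (-3.32), Lcn2 (-3.29), Inhbb (-3.13), Cp (-3.09), Arg2 (-2.83) and Igfbp1 (-2.75), and those that fell in WT and rose in KO were Car3 (4.61), Odc1 (2.73), Gm32461 (2.66), Smcp (2.35), Cenpj (2.24) and Ugt2a3 (2.18). Genes that fell in both were Ces1g, with the deeper fall in WT (1.73), and Snrnp70 (-0.89), Chst15 (-0.82) and Tle1 (-0.75), with the deeper fall in KO. No group had more than 3 arrays, so single arrays were not screened against their group. The loss of single arrays or other settings ended the calls of some of these genes, as given with their results. Kynu, Zfp365, Inhbb and Tle1 had 1 of 2 probe sets called, and Snrnp70 had 1 of 4.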

How the results depend on the processing

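Over 182 genes followed through the settings, 3503 of 3803 gene and setting pairs kept direction and side of the threshold, 273 lost the call, 27 gained it and 0 reversed. The variance trend, common centring and the omission of low-spread probe sets kept every count within 1.5 times. Quantile normalization gave 2879 differing probe sets (WT alone 1284, same direction 11), 5664 in the WT response and 4049 under ANG II between genotypes. It shared 2805 calls with the reported ones, and 53.2% were higher in KO, against 58.2%. With 1 probe set per gene the counts were 1970 for the difference (WT alone 1190, KO alone 412, opposite 202, same direction 13, neither 153), 4493 and 1928 for the WT and KO responses, 1247 at baseline and 4224 under ANG II. With a gene's probe sets averaged they were 2361 (1347, 538, 273, 14 and 189), 4821, 2333, 1469 and 4651, and in both settings fewer features were tested. Array weights gave 6962 for the KO response and 4849 at baseline; the cause was not tested. A 1.5-fold minimum gave 2644 (929, 498, 90, 6 and 1121), and an adjusted p under 0.01 gave 1483 (927, 303, 92, 2 and 159). Responses called at an unadjusted p gave 1374 opposite, 93 same direction and 0 neither, with the 4404 calls kept.

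With the replicate number as a block for the WT arrays alone, 4969 probe sets differed and 4198 were shared with the 4404. It ended the calls of Bmp4 (adjusted p = 0.0599), Cxcl10 (0.0692), Egr2 (0.0512) and Gata3 (0.0639), gave that of Fgg (0.0344), and changed no other call among the genes followed. With the number as a block for all arrays, 4276 differed and 3946 were shared, and the calls of Car2 (0.0507), Fkbp5 (0.0664), Hsd11b1 (0.0581) and Slc34a1 (0.0513) ended. Over all groups 7 of 18 same-numbered pairs correlated over 0.1 (-0.157 to 0.219; other pairs -0.294 to 0.236). Without 1 array, the differing probe sets ran from 2484 to 5104, WT alone from 1625 to 3234, KO alone from 446 to 1009, opposite from 186 to 434, same direction from 12 to 50, neither from 166 to 394, the WT response from 5773 to 12277, the KO response from 2069 to 5183, the baseline difference from 1107 to 3329 and that under ANG II from 5021 to 10743. A lone pair of arrays then stands for its group. Deposited ratios hold no signal over background, so whether a dim probe set limits a result was not tested.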
